A study of Mus musculus with 14 samples.

Results

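The interferon response genes are a set of 41 mouse genes that interferons switch on, listed by symbol. Each was read from the probe set that carries its symbol alone, taking the one with the highest mean over the 7 sample groups where a gene had several. By this rule 37 of the 41 were measured, among 19938 genes in all. Isg15, Gbp2 and Igtp each had only a probe set that carries 2 symbols, Ifi44 had none listed, and these 4 genes were not analysed here.

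The samples were organoids and whole tissues of C57BL/6 mice, on 14 Affymetrix gene arrays, 2 for each of 7 groups. Organoids are small epithelial structures grown in Matrigel, a gel of extracellular matrix. The groups were differentiated gallbladder organoids, gallbladder organoids, liver organoids and small intestine organoids, and gallbladder, liver and small intestine tissue. Organoid medium held EGF, FGF10, HGF, nicotinamide, R-spondin 1 (which amplifies Wnt signalling) and noggin (which blocks bone morphogenetic proteins). For the differentiated gallbladder organoids, noggin, nicotinamide and R-spondin 1 had been withheld for 2 weeks. The labels name no age, genotype change or pooling, and nothing says whether the replicates were separate animals or cultures, so p-values measure only the spread between these arrays.

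Interferons are secreted when a cell senses foreign nucleic acid, and they bind receptors on the same and on neighbouring cells. Type I and type III interferons act through the kinases Jak1 and Tyk2 on a transcription factor complex that includes Stat2 and Irf9, which binds the interferon-stimulated response element (ISRE) in the promoters of target genes. Interferon gamma acts mainly at a different element, called GAS. In the gut and the bile ducts the epithelium itself responds to these signals, type III interferon in particular, and bears a resting level of the target genes.

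Promoters of 9 genes named in the results are printed, some with and some without the letters of these elements; the 9 were chosen after the matches and the values were seen. Windows of 300 bases, from 250 before to 50 after the annotated start, came from the RefSeq table of build GRCm38.p6, where 33 of the 41 genes were matched. The ISRE core was searched as GAAA, any 2 bases and GAAA, and the GAS core as TTC, any 3 bases and GAA, each on both strands. Every window is written 5′ to 3′ along the gene, with ISRE matches in capitals; TTTC, 2 bases and TTTC is the same core on the other strand, and matches may overlap, as in Irgm1. The Ifit1 window lies at chr19:34640639-34640938 on the plus strand, Ifit3 at chr19:34583279-34583578 (plus), Rsad2 at chr12:26456403-26456702 (minus), Ddx60 at chr8:61927837-61928136 (plus), Oas3 at chr5:120777610-120777909 (minus), Irgm1 at chr11:48871371-48871670 (minus), Oasl2 at chr5:114896684-114896983 (plus), Cmpk2 at chr12:26468965-26469264 (plus) and Irf7 at chr7:141266375-141266674 (minus).
Ifit1: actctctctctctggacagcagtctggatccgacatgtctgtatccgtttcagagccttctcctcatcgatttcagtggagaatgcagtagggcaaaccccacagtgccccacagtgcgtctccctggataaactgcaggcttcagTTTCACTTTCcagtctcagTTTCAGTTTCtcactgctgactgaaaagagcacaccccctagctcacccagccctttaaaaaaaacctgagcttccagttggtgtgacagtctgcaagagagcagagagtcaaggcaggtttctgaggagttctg
Ifit3: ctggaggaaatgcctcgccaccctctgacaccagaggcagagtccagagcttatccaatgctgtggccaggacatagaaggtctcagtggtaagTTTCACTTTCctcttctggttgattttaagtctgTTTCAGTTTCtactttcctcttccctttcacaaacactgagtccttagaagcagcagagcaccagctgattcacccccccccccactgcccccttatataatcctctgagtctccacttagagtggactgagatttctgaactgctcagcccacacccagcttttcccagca
Rsad2: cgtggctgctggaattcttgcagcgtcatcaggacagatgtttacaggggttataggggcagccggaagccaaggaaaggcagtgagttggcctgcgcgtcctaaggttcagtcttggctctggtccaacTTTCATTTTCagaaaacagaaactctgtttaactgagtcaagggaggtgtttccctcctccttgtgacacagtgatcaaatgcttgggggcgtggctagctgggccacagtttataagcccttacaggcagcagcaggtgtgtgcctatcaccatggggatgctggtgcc
Ddx60: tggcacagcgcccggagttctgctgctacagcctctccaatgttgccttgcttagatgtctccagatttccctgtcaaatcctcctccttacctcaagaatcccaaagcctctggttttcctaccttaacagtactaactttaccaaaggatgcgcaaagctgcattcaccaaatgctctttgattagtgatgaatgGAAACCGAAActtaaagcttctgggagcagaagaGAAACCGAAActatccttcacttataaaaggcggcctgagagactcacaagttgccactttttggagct
Oas3: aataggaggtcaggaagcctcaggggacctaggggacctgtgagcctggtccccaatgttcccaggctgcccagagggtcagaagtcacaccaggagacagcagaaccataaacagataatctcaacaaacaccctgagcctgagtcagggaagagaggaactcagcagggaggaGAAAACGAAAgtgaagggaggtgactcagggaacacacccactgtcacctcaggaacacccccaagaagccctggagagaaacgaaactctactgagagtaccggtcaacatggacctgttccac
Irgm1: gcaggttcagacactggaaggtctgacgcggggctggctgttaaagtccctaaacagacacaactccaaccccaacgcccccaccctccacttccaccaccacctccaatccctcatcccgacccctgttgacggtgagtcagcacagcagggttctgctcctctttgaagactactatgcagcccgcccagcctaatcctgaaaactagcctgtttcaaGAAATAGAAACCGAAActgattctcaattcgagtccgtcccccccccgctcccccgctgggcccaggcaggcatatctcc
Oasl2: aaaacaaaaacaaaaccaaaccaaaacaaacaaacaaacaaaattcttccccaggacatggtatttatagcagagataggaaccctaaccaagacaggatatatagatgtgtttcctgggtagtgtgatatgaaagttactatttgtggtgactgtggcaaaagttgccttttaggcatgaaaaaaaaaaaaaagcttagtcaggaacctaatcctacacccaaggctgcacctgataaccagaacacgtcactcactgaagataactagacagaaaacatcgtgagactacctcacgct
Cmpk2: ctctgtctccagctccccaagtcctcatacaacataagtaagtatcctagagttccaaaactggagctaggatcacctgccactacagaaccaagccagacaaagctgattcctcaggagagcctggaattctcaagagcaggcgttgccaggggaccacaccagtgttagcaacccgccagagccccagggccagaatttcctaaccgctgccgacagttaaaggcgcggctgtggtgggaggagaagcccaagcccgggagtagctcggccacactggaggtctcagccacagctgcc
Irf7: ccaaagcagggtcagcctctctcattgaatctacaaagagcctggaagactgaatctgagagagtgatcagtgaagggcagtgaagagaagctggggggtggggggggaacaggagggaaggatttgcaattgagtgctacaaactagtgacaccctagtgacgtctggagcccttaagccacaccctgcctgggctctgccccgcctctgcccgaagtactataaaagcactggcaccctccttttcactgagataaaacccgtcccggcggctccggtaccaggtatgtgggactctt
Ifit1, Ifit3 and Ddx60 each held 2 separate matches, Irgm1 held 2 that overlap, Rsad2 and Oas3 held 1, and the windows of Oasl2, Cmpk2 and Irf7 held no match. The windows of Dtx3l, Samd9l and Irf9, also named below, held none either. Over the set, 16 of the 33 matched genes (48.5%) held an ISRE core, against 3.99% of the 27025 genes in the promoter table. A GAS core was found in 8 of the 33 (24.2%), against 9.55% of all genes. A match is a run of letters and not a site shown to be bound.

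Values throughout are log2 signals, so a difference of 1 is a 2-fold difference. A gene is called changed in a comparison where its adjusted p, from limma fitted to all 14 arrays and adjusted by Benjamini-Hochberg over all 19938 genes, is below 0.05. Levels of different genes are not set against each other, since each probe set has its own brightness.

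Some arrays stood apart and touch the results below. Small intestine tissue replicate 2 lay above replicate 1 for 36 of the 37 genes, by a median of 1.13, while over all genes replicate 1 was the higher in 55%. The gap exceeded 1 for 21 of the 37, against 4.24% of all genes. It was widest for Usp18, a protease that removes ISG15 from proteins and damps interferon signalling, at 9.08 and 11.67 in replicates 1 and 2, and Cmpk2, a nucleotide kinase, was the exception at 10.34 and 10.21. Replicate 2 also held pancreatic acinar transcripts, with Cpa1 at 6.79 and 13.52 in replicates 1 and 2, and 11 of 13 immune cell markers were higher there, by a median of 0.95 over the 13. In gallbladder tissue, replicate 1 lay above replicate 2 for 30 of the 37 interferon genes, by a median of 0.33. That tissue carried hepatocyte transcripts, with Alb at 14.30 in both arrays, and 5 of 6 hepatocyte markers were higher in replicate 2, by a median of 0.91 over the 6, as with Apoa1 at 12.43 and 14.02 in replicates 1 and 2. All 6 endothelial markers were also higher in its replicate 2, by a median of 0.95. The part that these other cells had in the interferon values was not tested.

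**Figure D1:**
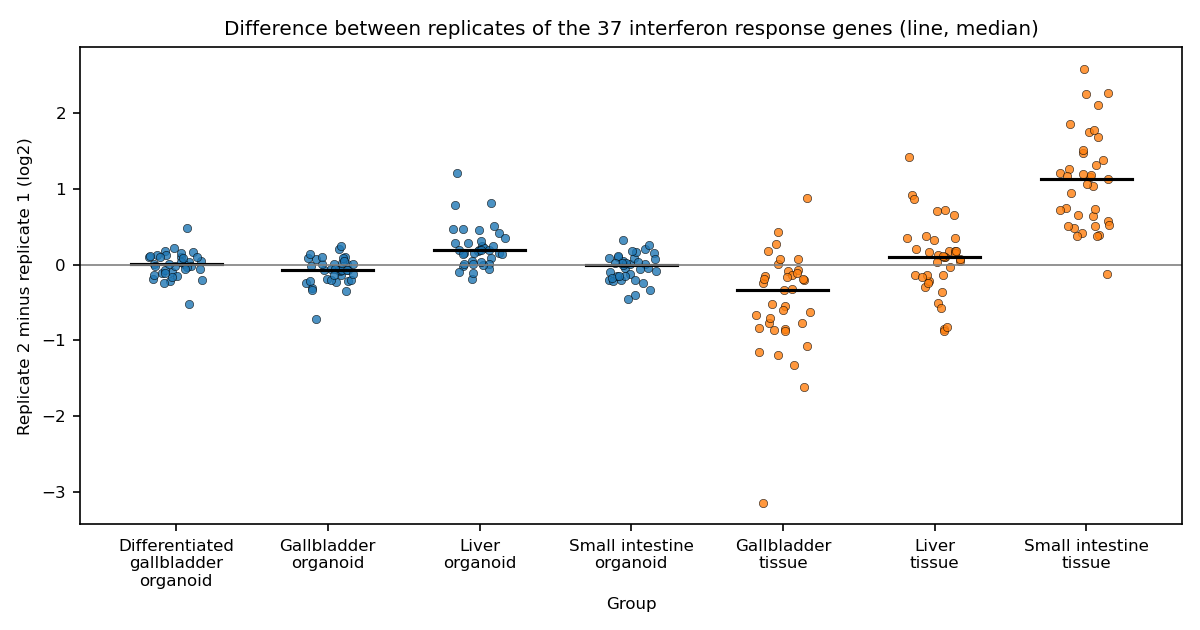
Difference between the 2 arrays of each group for the 37 interferon response genes, as replicate 2 minus replicate 1 in log2 units, with a point per gene and a black line at each median. Small intestine tissue stands apart, with 36 of 37 genes higher in replicate 2, and Cmpk2 as the exception.

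Across the 7 groups the organoids lay at the low end of the set. The median over the 37 group means was 7.94 in differentiated gallbladder organoids, 8.02 in gallbladder organoids, 8.52 in liver organoids, 7.66 in small intestine organoids, 9.15 in gallbladder tissue, 9.55 in liver tissue and 9.85 in small intestine tissue. The same median over all genes ran only from 7.76 in liver tissue to 7.88 in gallbladder tissue. By array, the median of the 37 genes was 9.08 and 10.51 in small intestine tissue replicates 1 and 2. It was 9.46 and 9.56 in liver tissue, and 9.47 and 8.96 in gallbladder tissue. The top place of small intestine tissue thus rested on its replicate 2. The highest group was a tissue for 33 genes, with 17 in small intestine, 14 in liver and 2 in gallbladder. The lowest was an organoid for 35 genes, with 15 in small intestine organoids, 13 in differentiated gallbladder organoids, 6 in gallbladder organoids and 1 in liver organoids. The share of all genes with a tissue highest or an organoid lowest was not counted, so these counts have no background beside them. The 17 use the mean of both small intestine tissue arrays. For Ifit1, among the 17, replicate 1 alone (9.22) lay below both liver tissue arrays (9.54 and 9.59). Among the organoid groups alone, small intestine organoids were the lowest for 15 of the 37 genes, beside 43.5% of all genes. That count was thus not above the background. Differentiated gallbladder organoids were the lowest for 13, beside 18.6% of all genes, and gallbladder organoids for 8, beside 17.7%. Liver organoids were the lowest for 1, beside 20.2%.

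**Figure D2:**
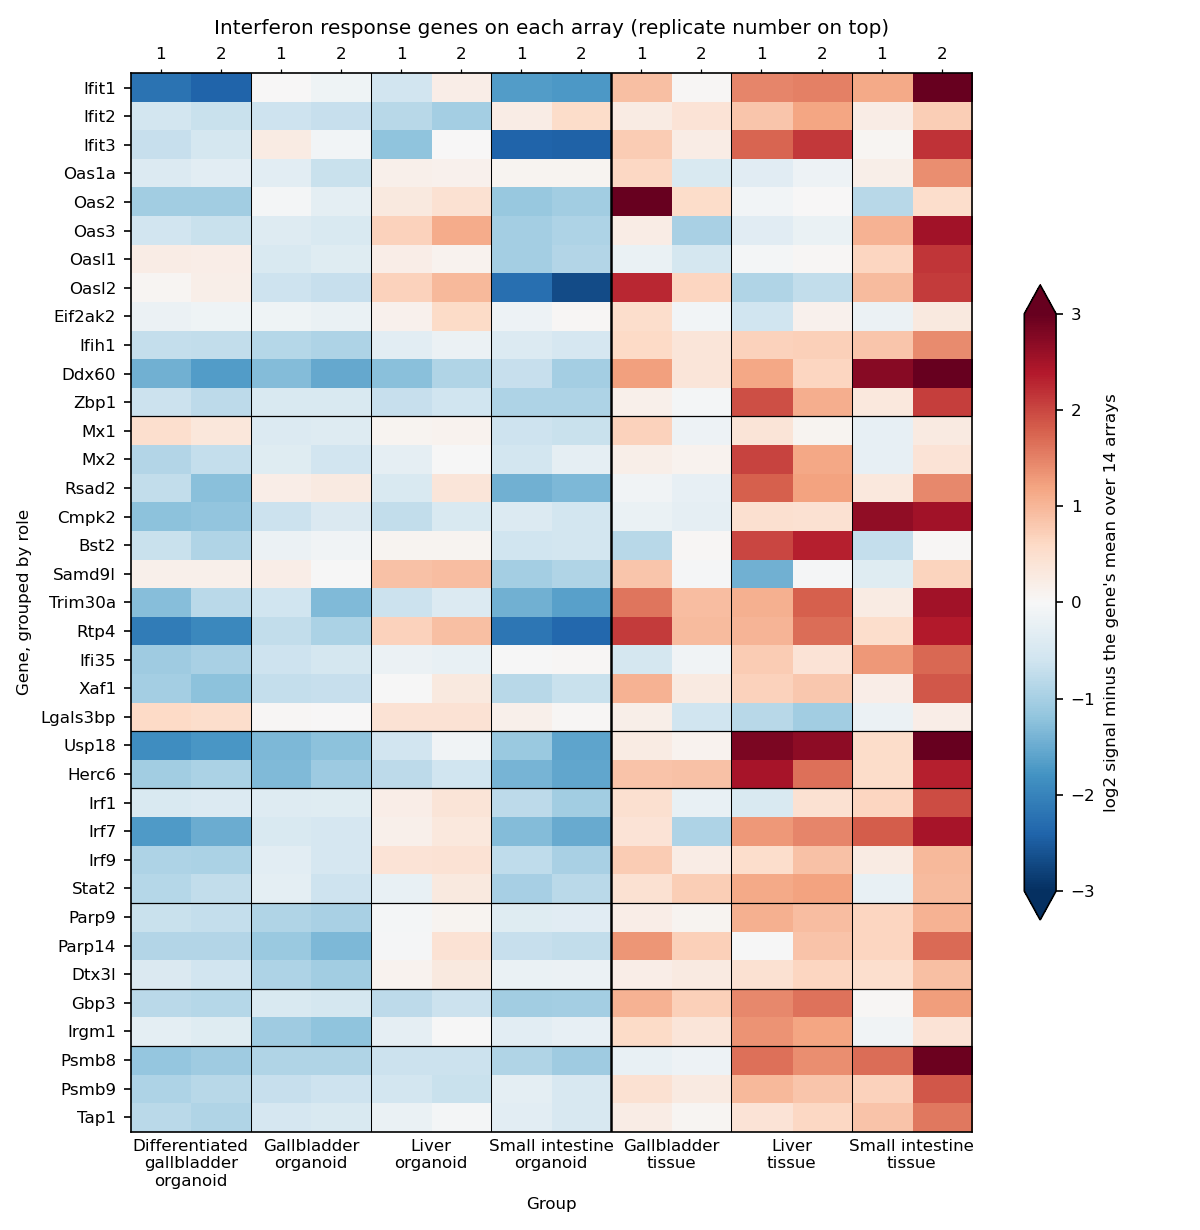
Signal of the 37 interferon response genes on each of the 14 arrays, as the log2 difference of each array from that gene's mean over all arrays, with genes in rows by role and arrays in columns by group. The organoid columns are mostly below the gene means and the tissue columns above, most of all small intestine tissue replicate 2.

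For 11 genes every one of the 8 organoid arrays lay below every one of the 6 tissue arrays, and for none did the organoid arrays all lie above, against 3.74% and 6.06% of all genes. The 11 were the sensors Ifih1 (which detects long viral RNA), Ddx60 (a helicase) and Zbp1 (which detects left-handed nucleic acid), the effectors Cmpk2 and Trim30a, Usp18 and the ISG15 ligase Herc6, the GTPase Gbp3, the immunoproteasome subunits Psmb8 and Psmb9, and the peptide transporter Tap1. Tap1 ranged from 8.02 to 8.89 over the organoid arrays and from 8.98 to 10.51 over the tissue arrays. Ddx60 ranged from 5.40 to 6.39 over the organoid arrays and from 7.45 to 10.76 over the tissue arrays. For these genes the cultures and the tissues did not overlap on any array, whichever organ is taken.

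The comparison of differentiated with ordinary gallbladder organoids asks what withdrawal of R-spondin 1, noggin and nicotinamide did. Over all 14 arrays, 1 of the 37 genes rose (Irgm1), 1 fell (Cmpk2) and 35 did not pass, which is 5.41% of the set against 4.73% of all genes (2.8% higher and 1.93% lower). Irgm1, a GTPase that acts on intracellular pathogens, had 8.95 and 8.89 in differentiated organoids, against 8.19 and 8.05 in gallbladder organoids, a difference of 0.80 ± 0.17 (SE; adjusted p = 0.0223). Cmpk2 had 6.47 and 6.51 in differentiated organoids, against 7.04 and 7.25 in gallbladder organoids, a difference of -0.66 ± 0.12 (SE; adjusted p = 0.0116). The median difference of the set was -0.20 and that of all genes -0.044, and 9 of the 37 had an unadjusted p below 0.05. The count rests on single arrays: with either differentiated array or gallbladder organoid replicate 2 left out it was 0, with gallbladder organoid replicate 1 left out it was 1, and with any 1 gallbladder or small intestine tissue array left out it was 6. Irgm1 lost its call when any 1 of the 4 arrays compared was left out (adjusted p of 0.107 to 0.184) and Cmpk2 for 3 of them (0.0874 to 0.131).

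The spread used in that fit comes from all groups, including the small intestine tissue pair, while the organoid pairs differed little: the pooled replicate SD of the 37 genes was 0.12 in differentiated and 0.14 in gallbladder organoids, against 0.90 in small intestine tissue. A fit of the 8 organoid arrays alone, chosen after the values were seen, called 20 of the 37 genes between the same 4 arrays, 7 higher and 13 lower (54.1%, against 23% of all genes). This fit has 4 residual degrees of freedom, and it does not include the spread seen in the tissues.

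The genes that separated the differentiated organoids most were mixed in direction. Ifit1, which binds viral RNA that lacks the host cap, had 5.87 and 5.68 in differentiated organoids, against 8.10 and 7.95 in gallbladder organoids. That is 4.76-fold lower, with a difference of -2.25 ± 0.20 (SE in the organoid fit) and an adjusted p of 7.99e-05 over the organoid arrays and 0.0592 over all 14; over the other settings the adjusted p ran from 2.99e-05 to 0.317. Ifit1 was lower in differentiated organoids than in any other group, and the arrays did not overlap. Its mean there stood at percentile 16 of all genes ranked by signal. Whether it lay above background was not tested. Rsad2, viperin, which makes a chain-terminating nucleotide, had 7.01 and 6.50 in differentiated organoids, against 7.95 and 8.04 in gallbladder organoids (difference -1.24; adjusted p = 0.00571 over the organoid arrays and 0.101 over all 14). Rtp4, a chaperone of membrane receptors, had 6.11 and 6.29 in differentiated organoids, against 7.48 and 7.27 in gallbladder organoids (-1.17; 0.000125 and 0.301). Irf7, the transcription factor that amplifies type I interferon production, had 7.77 and 7.99 in differentiated organoids, against 9.02 and 8.96 in gallbladder organoids (-1.11; 0.000104 and 0.123). Oas2, an enzyme that activates RNase L when it binds viral RNA, had 7.02 and 7.03 in differentiated organoids, against 8.01 and 7.77 in gallbladder organoids (-0.86; 0.000264 and 0.68).

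In the opposite direction, Mx1, a gene of the dynamin-like GTPase family, had 7.18 and 7.01 in differentiated organoids, against 6.27 in both gallbladder organoid arrays (0.82; adjusted p = 0.000104 over the organoid arrays and 0.105 over all 14). Oasl2 and Oasl1, relatives of the Oas enzymes, were higher by 0.77 and 0.62, with adjusted p-values of 0.00398 and 0.000723 in the organoid fit. Ifit3, which partners Ifit1, had 8.04 and 8.21 in differentiated organoids, against 8.98 and 8.66 in gallbladder organoids, and was called in neither fit. By role, the organoid fit called 2 higher and 3 lower of 12 sensors and RNA-directed effectors, 2 higher and 6 lower of 11 other antiviral effectors, and 0 higher and 2 lower of 4 transcription factors, beside 12% of all genes higher and 11% lower in that fit. Of the ADP-ribosyl transferases and their partner, Parp9 and Dtx3l were called higher and Parp14 was not called. Among 13 immune cell markers the same fit called 4 higher and 0 lower, led by Laptm5 at 9.60 and 9.36 in differentiated organoids, against 7.13 and 7.52 in gallbladder organoids, while Ptprc, which every leucocyte bears, stayed between 6.25 and 6.56 in all 4 arrays. The part of these markers in the interferon values was not tested.

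**Figure D3:**
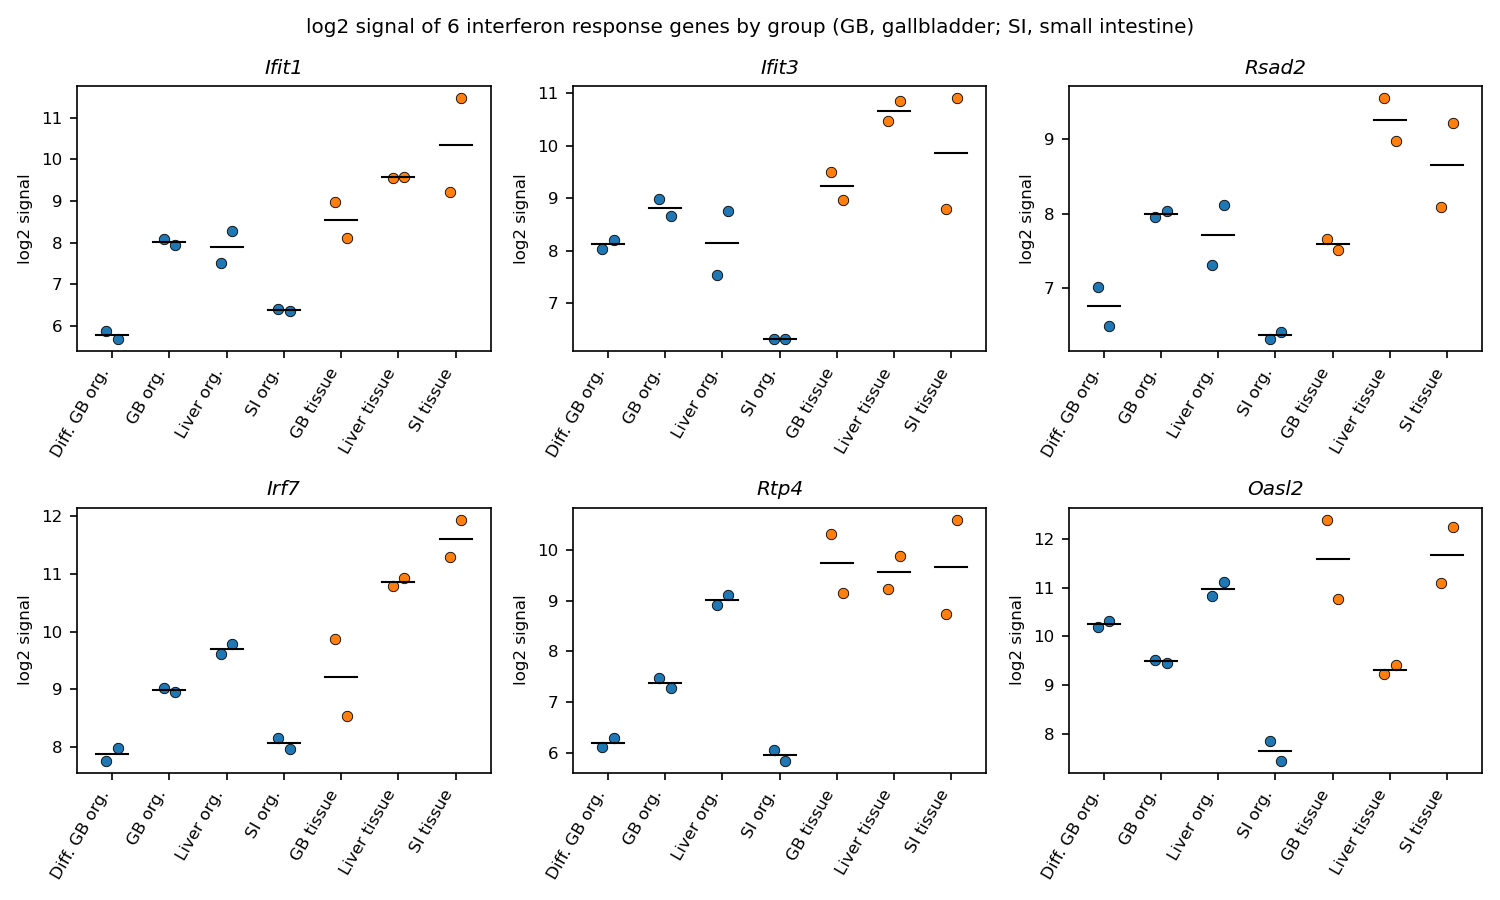
Log2 signal of Ifit1, Ifit3, Rsad2, Irf7, Rtp4 and Oasl2 on every array, with one point per array and a line at each group mean (n = 2); the 6 genes were chosen after their values were seen. Ifit1 is lowest in differentiated gallbladder organoids, Oasl2 is lowest in small intestine organoids, and the 2 small intestine tissue arrays lie apart for all 6.

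Of the 4 cultures, liver organoids were the highest group for 24 of the 37 genes and the lowest for 1, whereas over all genes they were the highest for 20.3% and the lowest for 20.2%. Gallbladder organoids were lower than liver organoids for 6 genes and higher for none in the fit of all arrays, which is 16.2% of the set against 12.7% of all genes (6.17% higher and 6.52% lower); 9 of the 37 had an unadjusted p below 0.05. The median difference was -0.51 in the set and 0.054 over all genes.

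Those 6 genes were Parp14, Dtx3l, Parp9, Irgm1, Irf9 and Ifih1. Dtx3l, the ubiquitin ligase that works as a pair with Parp9, had 8.94 and 8.81 in gallbladder organoids, against 9.96 and 10.15 in liver organoids (-1.18 ± 0.14 SE; adjusted p = 0.000553). Parp9 had 8.38 and 8.30 in gallbladder organoids, against 9.23 and 9.38 in liver organoids (-0.96 ± 0.13; 0.00121), and Irgm1 had 8.19 and 8.05 against 9.00 and 9.25 (-1.0 ± 0.17; 0.00374). These 3 kept their calls under every alternative. Parp14, a mono-ADP-ribosyl transferase, had 7.69 and 7.47 in gallbladder organoids, against 8.78 and 9.25 in liver organoids (-1.44 ± 0.36; 0.0297). Irf9, the DNA-binding subunit of the interferon complex, had 9.34 and 9.14 in gallbladder organoids, against 10.05 and 10.09 in liver organoids (-0.83 ± 0.24; 0.0489). Ifih1 had 8.97 and 8.90 in gallbladder organoids, against 9.50 and 9.65 in liver organoids (-0.64 ± 0.17; 0.0319). The count was 3 when any 1 array of the differentiated, gallbladder or liver organoids was left out, 10 without either gallbladder tissue array and 12 without either small intestine tissue array. Parp14 lost its call when any 1 of those 6 organoid arrays was left out (adjusted p of 0.0518 to 0.2), and Irf9 and Ifih1 when any 1 of the 8 organoid arrays was (0.0713 to 0.253 and 0.0523 to 0.193). Quantile normalisation also ended the calls of Irf9 (0.0841) and Ifih1 (0.0594), and centring each array on its median ended that of Irf9 (0.0553).

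The fit of the organoid arrays alone called 25 of the 37 lower and 1 higher in gallbladder than in liver organoids (70.3%, against 39.8% of all genes). The largest of these were Rtp4, with 7.48 and 7.27 in gallbladder organoids, against 8.92 and 9.11 in liver organoids (3.12-fold lower; adjusted p = 9.89e-06, and up to 0.281 in other settings), and Oasl2, with 9.52 and 9.45 in gallbladder organoids, against 10.83 and 11.11 in liver organoids (2.79-fold lower; 5.3e-05, and up to 0.293). Oas3, the Oas enzyme that acts on long viral RNA, had 7.23 and 7.16 in gallbladder organoids, against 8.31 and 8.72 in liver organoids (2.51-fold lower; 5.04e-05, and up to 0.358). The gene that ran the other way was Gbp3, at 0.22 higher (adjusted p = 0.0436), and Ifit1 and Ifit3 were called in neither fit: the liver organoid arrays were apart for Ifit3, at 7.54 and 8.75.

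Gallbladder and small intestine organoids differed in both directions. Over all arrays 4 of the 37 genes were higher in gallbladder organoids and 5 lower, 24.3% of the set against 35.6% of all genes, so the share was below the background. Ifit3 had 8.98 and 8.66 in gallbladder organoids, against 6.32 in both small intestine organoid arrays, which is 5.65-fold higher (difference of 2.50; adjusted p = 0.00717). Oasl2 had 9.52 and 9.45 in gallbladder organoids, against 7.86 and 7.46 in small intestine organoids (1.83; 0.0125). Rsad2 had 7.95 and 8.04 in gallbladder organoids, against 6.32 and 6.42 in small intestine organoids (1.63; 0.0065). Ifit1 had 8.10 and 7.95 in gallbladder organoids, against 6.40 and 6.35 in small intestine organoids (1.65; 0.0495). The 5 lower genes were Ifit2, Ifi35, Parp9, Dtx3l and Irgm1. Ifit2, of the same family as Ifit1 and Ifit3, had 5.88 and 5.79 in gallbladder organoids, against 6.71 and 7.04 in small intestine organoids (-1.04; 0.00174), and Irgm1 had 8.19 and 8.05 against 8.95 and 9.02 (-0.87; 0.00253). Neighbouring family members thus ran in opposite directions between these cultures. The signal of Ifit2 was low, at percentile 15.9 of all genes in gallbladder organoids and 36.7 in small intestine organoids. Whether it lay above background was not tested. Without gallbladder organoid replicate 1 the count was 5 and Ifit3 was lost (adjusted p = 0.0503). Oasl2 was lost without either gallbladder organoid array or small intestine organoid replicate 2 (0.0576 to 0.0859), and Ifit1 when any 1 of the 8 organoid or 2 liver tissue arrays was left out (0.0598 to 0.169). Ifit1 was also lost with quantile normalisation (0.0621), median centring (0.0555), or an intensity trend and robust fitting (0.0626). In the organoid fit 17 were higher and 10 lower (73%, against 59.1% of all genes), with Rtp4 and Samd9l, a restriction factor for poxviruses, added at 1.42 and 1.05 (adjusted p = 5.53e-06 and 7.62e-06, against up to 0.21 and 0.286 in other settings).

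Between liver and small intestine organoids the set ran mostly one way, with 32 of the 37 differences above 0. Over all arrays 9 of the 37 genes were higher in liver organoids and 1 lower, with 24.3% of the set against 14.2% of all genes higher and 27% against 26.5% in either direction. Oasl2 had 10.83 and 11.11 in liver organoids, against 7.86 and 7.46 in small intestine organoids, a 9.90-fold difference (3.31; adjusted p = 0.00043). Rtp4 had 8.92 and 9.11 in liver organoids, against 6.06 and 5.85 in small intestine organoids (8.35-fold; 3.06; 0.00151). Irf7 had 9.62 and 9.79 in liver organoids, against 8.16 and 7.97 in small intestine organoids (1.64; 0.00583). These 3 kept their calls under every alternative, with adjusted p-values of at most 0.0468. Oas3 had 8.31 and 8.72 in liver organoids, against 6.59 and 6.68 in small intestine organoids (1.88; 0.0099), Samd9l had 10.09 and 10.14 against 8.21 and 8.32 (1.85; 0.0118), and Ifit3 had 7.54 and 8.75 against 6.32 in both arrays (1.82; 0.0408). The lower gene was Ifit2, at 5.66 and 5.47 in liver organoids, against 6.71 and 7.04 in small intestine organoids. The count was 5 without liver organoid replicate 2 or small intestine organoid replicate 1, 6 without small intestine organoid replicate 2, and 22 without either small intestine tissue array. Oas3 was lost without liver organoid replicate 2 or small intestine organoid replicate 1 (adjusted p = 0.0784 and 0.0584), Samd9l when any 1 of the 4 arrays compared was left out (0.0552 to 0.0675), and Ifit3 when any 1 of 9 arrays was (0.052 to 0.281), namely both liver tissue arrays and the organoid arrays other than liver organoid replicate 1. Ifit3 was also lost with quantile normalisation (0.0501) or an intensity trend and robust fitting (0.0543). The organoid fit called 28 higher and 2 lower (81.1%, against 44.4% of all genes).

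**Figure D4:**
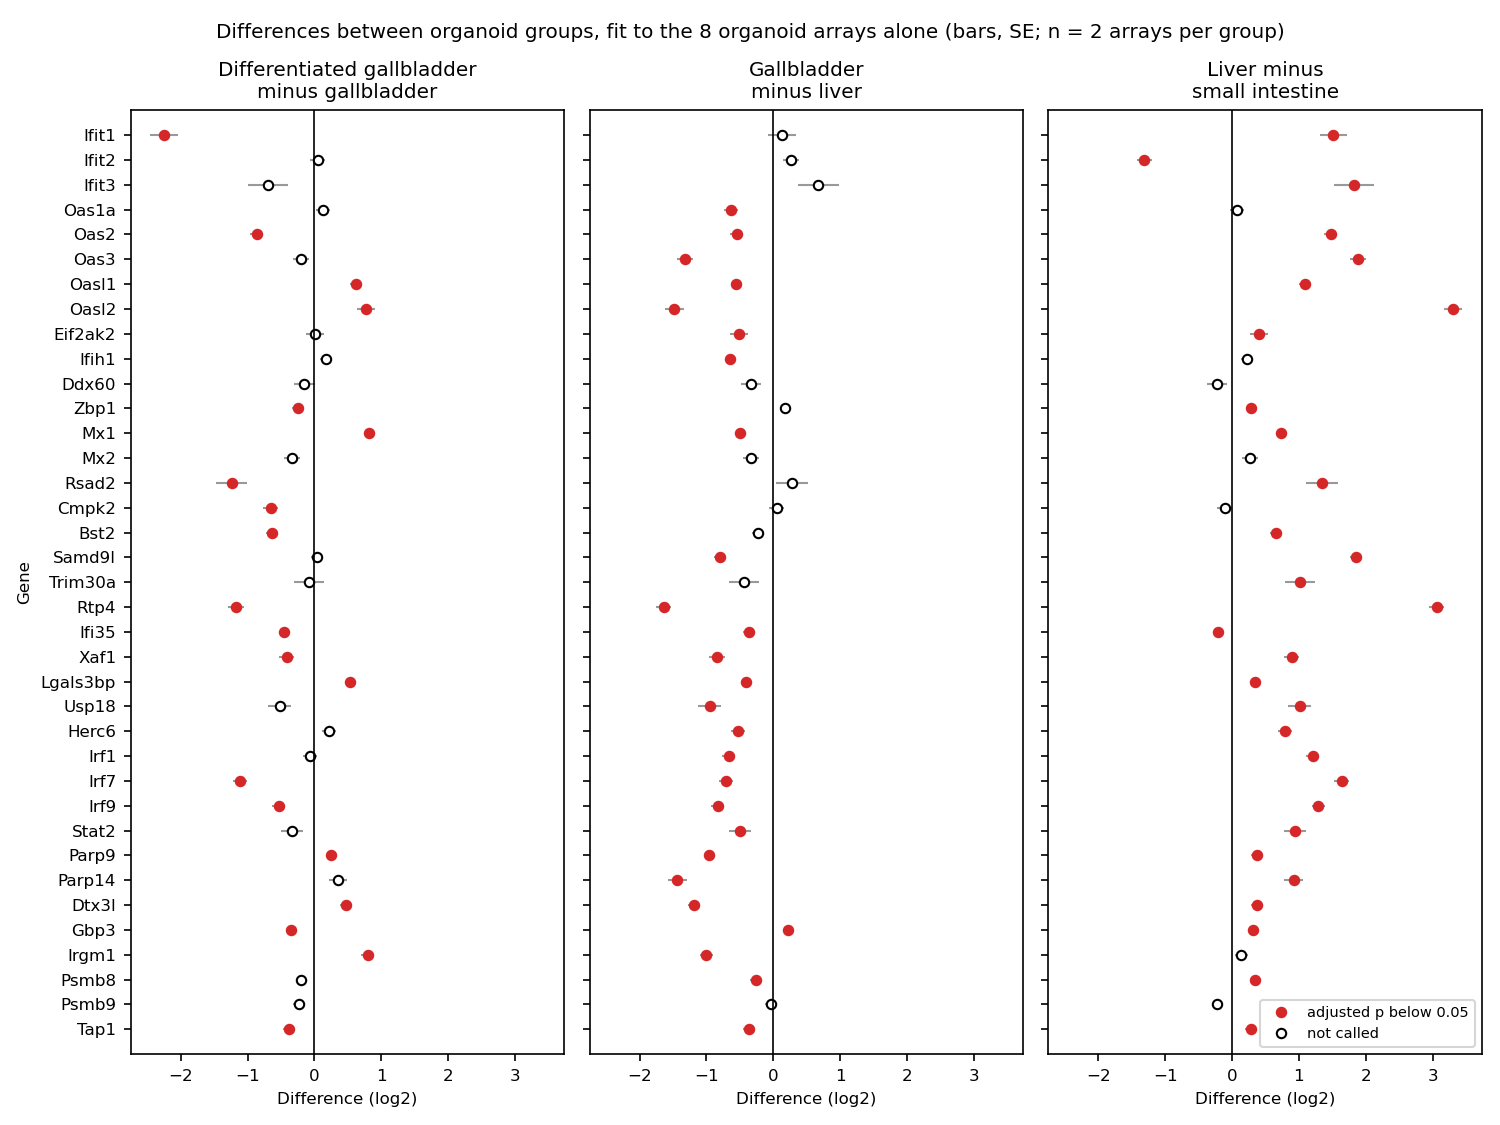
Differences of the 37 interferon response genes between organoid groups in the fit of the 8 organoid arrays alone, in log2 units with SE bars (n = 2 arrays per group), for differentiated minus gallbladder, gallbladder minus liver and liver minus small intestine organoids; filled points mark adjusted p below 0.05 in that fit. Most genes lie below 0 in gallbladder minus liver (30 of 37) and above 0 in liver minus small intestine (32 of 37).

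The comparisons of organoids with the tissue of the same organ ask how the cultures relate to their source. Most called genes were lower in culture in all 3 organs. In gallbladder 19 of the 37 were lower and none higher (51.4% of the set, against 15.2% of all genes lower and 47.9% in either direction), 22 having an unadjusted p below 0.05. In liver 22 were lower and 3 higher (59.5% against 18.2% lower, and 67.6% against 44.9% in either direction). In small intestine 27 were lower and none higher (73% against 15.6% lower and 35.8% in either direction), 30 having an unadjusted p below 0.05. The median difference of the set was -0.72, -0.99 and -1.67 in gallbladder, liver and small intestine, beside 0.17, 0.0046 and -0.018 over all genes. In whole tissue, fewer cells of a type and less RNA per cell cannot be told apart, and tissue holds cells that these cultures lack. The 13 immune cell markers were lower in organoids for 8 genes in gallbladder, 10 in liver and 10 in small intestine and higher for none; their summed level, as log2, lay between 10.42 and 12.19 over the organoid arrays and between 12.86 and 14.34 over the tissue arrays. Cd74, of antigen-presenting cells, lay between 6.14 and 6.62 in all organoid arrays and at 10.74 or above in all tissue arrays, and the 6 endothelial and 7 fibroblast and smooth muscle markers were also lower in gallbladder and liver organoids. In small intestine the median of the endothelial markers was 6.35 and 6.33 in organoids, against 8.10 and 8.41 in tissue. That of the fibroblast and smooth muscle markers was 7.0 and 6.9 in organoids, against 11.8 and 11.2 in tissue. The part of these cells in the interferon differences was not tested.

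**Figure D5:**
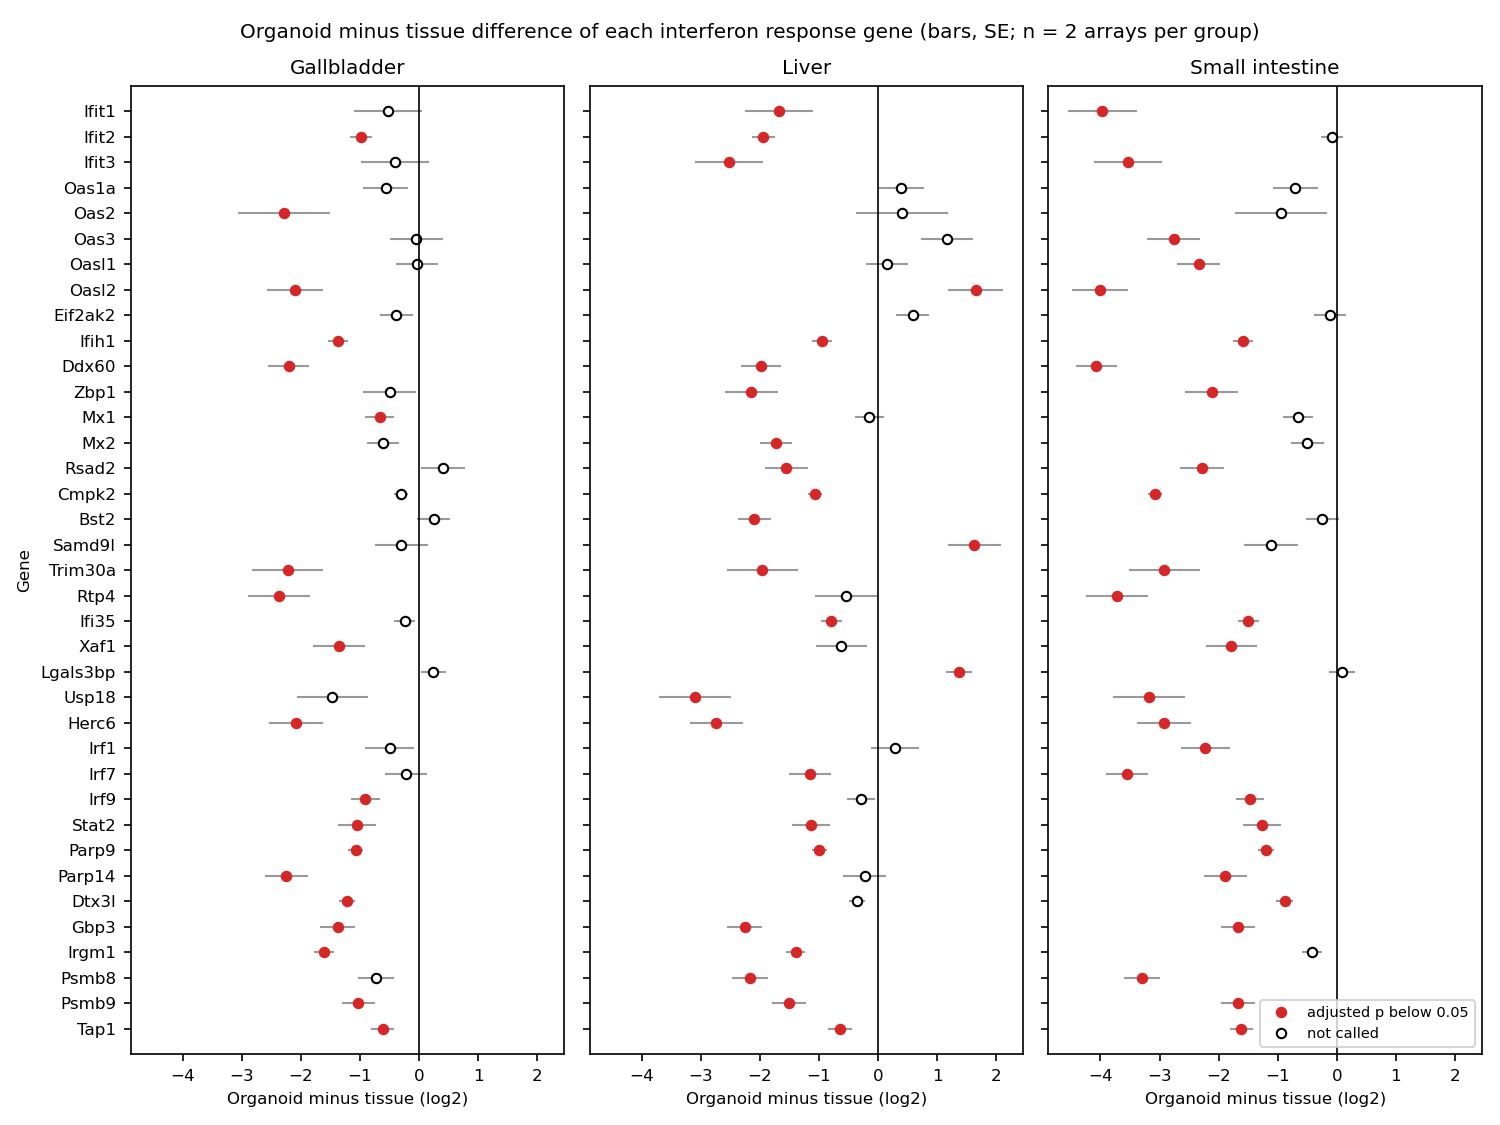
Organoid minus tissue difference of the 37 interferon response genes in gallbladder, liver and small intestine, in log2 units with SE bars (n = 2 arrays per group); filled points mark adjusted p below 0.05. The called genes lie below 0 in all 3 organs except Oasl2, Samd9l and Lgals3bp in liver.

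In the gallbladder the largest called differences were those of Rtp4, Oas2, Parp14, Trim30a, Ddx60 and Oasl2. Rtp4 had 7.48 and 7.27 in organoids, against 10.32 and 9.16 in tissue (-2.37 ± 0.53 SE; adjusted p = 0.00448). Parp14 had 7.69 and 7.47 in organoids, against 10.13 and 9.52 in tissue (-2.25 ± 0.36; 0.000721), and Ddx60 had 5.78 and 5.54 against 8.29 and 7.45 (-2.21 ± 0.34; 0.000557). Oasl2 had 9.52 and 9.45 in organoids, against 12.40 and 10.78 in tissue (-2.10 ± 0.47; 0.00465). The tissue arrays were far apart for Oas2, which had 8.01 and 7.77 in organoids, against 11.75 and 8.61 in tissue (-2.29 ± 0.78; 0.0339). Trim30a, a regulator of innate signalling, had 7.75 and 7.02 in organoids, against 9.95 and 9.28 in tissue (-2.23 ± 0.60; 0.0119). Ifit1, Ifit3, Rsad2 and Irf7 were not called, and gallbladder organoid and tissue arrays overlapped for Irf7, at 9.02 and 8.96 in organoids, against 9.88 and 8.55 in tissue. The Oas2 call was lost without gallbladder tissue replicate 1 (difference -0.72; adjusted p = 0.189) or either organoid array (0.096 and 0.129), and the difference was -3.86 without tissue replicate 2. Without tissue replicate 1 Oasl2 was -1.29 (0.0205) and Trim30a was lost (0.063), as it was without gallbladder organoid replicate 2 (0.0861), where the count was 11. With only the arrays compared in the fit, Oasl2 (0.0531) and Oas2 (0.174) were not called.

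In the liver the largest differences below tissue were those of Usp18 and Herc6, the 2 measured genes of the ISG15 pathway, followed by Ifit3, Gbp3, Psmb8 and Zbp1. Usp18 had 7.97 and 8.44 in organoids, against 11.37 and 11.23 in tissue, which is 8.54-fold lower (-3.09 ± 0.61 SE; adjusted p = 0.00185). Herc6 had 7.02 and 7.21 in organoids, against 10.26 and 9.44 in tissue (-2.74 ± 0.45; 0.000613). Ifit3 had 7.54 and 8.75 in organoids, against 10.48 and 10.85 in tissue (-2.52 ± 0.58; 0.00464). Gbp3 had 6.48 and 6.61 in organoids, against 8.71 and 8.88 in tissue (-2.25 ± 0.29; 0.000127). Both interferon-inducible GTPases and all 3 antigen processing genes were lower, Psmb8 with 7.17 and 7.18 in organoids, against 9.46 and 9.22 in tissue (-2.17 ± 0.30; 0.000192), and Zbp1 had 7.15 and 7.24 against 9.77 and 8.92 (-2.15 ± 0.45; 0.0027). The 3 genes that were higher in liver organoids were Oasl2 at 10.83 and 11.11, against 9.22 and 9.41 in tissue (1.66; 0.0149), Samd9l at 10.09 and 10.14, against 7.77 and 9.19 (1.63; 0.0132), and Lgals3bp, a secreted glycoprotein, at 13.28 and 13.27, against 12.01 and 11.80 (1.37; 0.000438). Liver tissue held little epithelial marker signal of the duct kind, with Epcam at 12.34 and 12.41 in liver organoids, against 7.11 and 7.0 in tissue.

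In the small intestine the largest differences were those of Ddx60, Oasl2, Ifit1, Rtp4, Irf7 and Ifit3. Ddx60 had 6.39 and 6.05 in organoids, against 9.81 and 10.76 in tissue, which is 16.8-fold lower (-4.07 ± 0.34 SE; adjusted p = 1.6e-05). Its organoid mean stood at percentile 24.3 of all genes ranked by signal, and whether it lay above background was not tested. Oasl2 had 7.86 and 7.46 in organoids, against 11.09 and 12.24 in tissue (-4.01 ± 0.47; 0.00011). Ifit1 had 6.40 and 6.35 in organoids, against 9.22 and 11.47 in tissue (-3.97 ± 0.58; 0.000429). Rtp4 had 6.06 and 5.85 in organoids, against 8.74 and 10.60 in tissue (-3.72 ± 0.53; 0.000356). Irf7 had 8.16 and 7.97 in organoids, against 11.28 and 11.94 in tissue (-3.55 ± 0.35; 4.12e-05), and Ifit3 had 6.32 in both organoid arrays, against 8.80 and 10.91 in tissue (-3.53 ± 0.58; 0.000857). All 4 transcription factors, all 3 ADP-ribosyl transferase genes and all 3 antigen processing genes were called lower. None of these 6 calls was lost in any alternative. Their size depends on the tissue array used: without tissue replicate 1, the array with the lower interferon gene levels, Ifit1 was -5.10, Rtp4 -4.64 and Ifit3 -4.58, and without replicate 2 they were -2.84, -2.79 and -2.48. The called count was 25 to 31 over the fits that left out 1 array each.

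Whether culture changed a gene by a different amount in different organs was tested as the difference between 2 organoid minus tissue differences. Between gallbladder and liver 6 genes of the 37 had a higher value in gallbladder and 5 a lower one (29.7%, against 39.8% of all genes). Between gallbladder and small intestine the numbers were 13 and 2 (40.5%, against 36.6%; higher 35.1% against 22.3%). Between liver and small intestine they were 13 and 4 (45.9%, against 35.2%; higher 35.1% against 19%). Oasl2 differed most: its organoid minus tissue difference was -2.10 in gallbladder against 1.66 in liver (difference -3.75 ± 0.66 SE; adjusted p = 0.00183), and 1.66 in liver against -4.01 in small intestine (5.66 ± 0.66; 0.000114). Oasl2 was thus lower in culture in gallbladder and small intestine and higher in culture in liver. Bst2, tetherin, which holds budding virus at the cell surface, was at 0.25 in gallbladder and -2.09 in liver (2.34; 0.00157). Irf7 was at -0.22 in gallbladder and -3.55 in small intestine (3.33; 0.000854). Leaving out small intestine tissue replicate 1 gave 20, 24 and 29 called genes in these 3 tests in place of 11, 15 and 17. The gallbladder and liver count was also 20 without small intestine tissue replicate 2, 17 without gallbladder tissue replicate 2, and 7 without gallbladder organoid replicate 1 or liver organoid replicate 1. The gallbladder and small intestine count was 9 without gallbladder organoid replicate 1.

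Among the tissues, gallbladder was below liver for 12 of the 37 genes and above it for 3 (40.5%, against 48.1% of all genes; 32.4% against 27.4% lower). Bst2 had 8.60 and 9.47 in gallbladder tissue, against 11.44 and 11.76 in liver tissue (-2.56 ± 0.28 SE; adjusted p = 7.29e-05). Usp18 had 8.78 and 8.65 in gallbladder tissue, against 11.37 and 11.23 in liver tissue (-2.58 ± 0.61; 0.00615). Psmb8 had 7.61 and 7.67 in gallbladder tissue, against 9.46 and 9.22 in liver tissue (-1.70; 0.00125), and Rsad2 had 7.66 and 7.51 against 9.55 and 8.97 (-1.67; 0.00434). Oasl2 was higher in gallbladder, at 12.40 and 10.78 against 9.22 and 9.41 (2.27; 0.00303, and 1.46 without gallbladder tissue replicate 1), and Oas2 at 11.75 and 8.61 against 7.97 and 8.07 (2.16; 0.0427). The Oas2 call rests on gallbladder tissue replicate 1, without which the difference was 0.58 (adjusted p = 0.297), while without replicate 2 it was 3.73. With any 1 of the 8 organoid arrays or either liver tissue array left out, its adjusted p was 0.0599 to 0.126. It was also lost with quantile normalisation (0.0592), median centring (0.0521), or an intensity trend and robust fitting (0.0544). With only the arrays compared in the fit, neither Oasl2 (0.0523) nor Oas2 (0.2) was called. Without either small intestine tissue array 25 genes were called between these tissues. The hepatocyte transcripts in gallbladder tissue, named above, move with this comparison, and their part was not tested.

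Small intestine tissue was then set against the other two. Gallbladder tissue was below it for 16 genes and above it for 1 (45.9%, against 45% of all genes; 43.2% against 24.3% lower), and liver tissue was below it for 9 and above it for 5 (37.8%, against 37.5%). Cmpk2, whose 2 small intestine arrays were close, had 7.49 and 7.42 in gallbladder tissue, 8.17 and 8.14 in liver tissue, and 10.34 and 10.21 in small intestine tissue. The difference was -2.82 ± 0.12 for gallbladder and -2.12 ± 0.12 for liver (SE; adjusted p = 8.26e-08 and 4.48e-07). Ddx60 was lower in gallbladder by -2.42 and in liver by -2.32 (0.000305 and 0.000387), and Oas3 by -2.16 and -2.05 (0.00315 and 0.00441), or by -1.42 and -1.31 without small intestine tissue replicate 2. Psmb8 and Irf7 were lower in gallbladder than in small intestine tissue, at -2.49 and -2.40 (0.000106 and 0.000386). Bst2 and Mx2, a GTPase related to Mx1, were higher in liver than in small intestine tissue, Bst2 with 11.44 and 11.76 against 8.73 and 9.47 (2.50; 6.41e-05) and Mx2 with 7.63 and 6.75 against 5.37 and 6.01 (1.5; 0.00154). Oasl2 was lower in liver than in small intestine tissue (-2.35; 0.00261). Oas2 was the gene higher in gallbladder than in small intestine tissue (2.27; 0.037), a call lost without gallbladder tissue replicate 1 (difference 0.70; adjusted p = 0.212), without small intestine tissue replicate 1 (0.201) or when any 1 of the 8 organoid arrays was left out (0.0532 to 0.0538), and its difference was 3.84 without gallbladder tissue replicate 2. With only the arrays compared in the fit, the calls of Mx2 (adjusted p = 0.0639), Oas3 in gallbladder (0.0984) and in liver (0.0598) and Oas2 (0.248) were lost.

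The 5 genes given here were chosen after their values were seen, and some of them passed the test in few or none of the comparisons. Eif2ak2, the kinase PKR that halts translation on viral RNA, lay between 8.73 and 9.51 over the 8 organoid arrays and between 8.33 and 9.47 over the 6 tissue arrays, and it was called in none of the 10 comparisons between groups in the fit of all 14 arrays. Oas1a, at 7.65 to 8.47 over the organoid arrays and 7.85 to 9.70 over the tissue arrays, was also called in none. The organoid and tissue ranges overlapped for both. In the fit of the 8 organoid arrays alone, both were called lower in gallbladder than in liver organoids, Eif2ak2 by -0.51 ± 0.14 and Oas1a by -0.64 ± 0.11 (log2, SE; limma, adjusted p = 0.0166 and 0.00169). Oas1a was also called lower in gallbladder than in small intestine organoids (-0.57; 0.0016), and Eif2ak2 higher in liver than in small intestine organoids (0.40; 0.0381). Stat2, a subunit of the interferon complex, was called lower in culture in all 3 organs, with 8.19 to 9.47 over the organoid arrays and 8.96 to 10.39 over the tissue arrays. Irf1, the factor best known from the interferon gamma response, had 8.76 and 8.51 in small intestine organoids, against 10.20 and 11.51 in small intestine tissue, and was called lower in culture in that organ only. Its culture change in gallbladder and that in liver each differed from that in small intestine (limma, adjusted p = 0.0404 and 0.00654). Xaf1, a gene linked to cell death, had 6.66 and 6.45 in differentiated gallbladder organoids, the lowest of the 7 groups, and was called lower in culture in gallbladder and small intestine.

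The genes upstream of the set were read from lists of the same pathway. Of 16 measured interferon genes, none was called between differentiated and gallbladder organoids over all arrays, with 1 at an unadjusted p below 0.05, and Ifna16 was called in the organoid fit (-0.55; adjusted p = 0.0184). The counts of the further lists stand beside these shares of all genes: 32.7% higher and 15.2% lower in gallbladder organoids than tissue, 26.7% and 18.2% in liver, and 20.2% and 15.6% in small intestine. In the organ comparisons 4 of the 16 interferon genes were higher and 1 lower in gallbladder organoids than tissue, and 1 was lower and none higher in liver and in small intestine organoids. Their median level lay between 6.04 and 6.55 on all 14 arrays, while the median over all genes lay between 7.74 and 7.93. Whether such low signals stand above background was not tested, so these calls may not be changes in interferon expression. Of 6 receptor genes, 4 were higher and none lower in gallbladder organoids than in tissue, and 4 were higher and 1 lower in liver organoids than in tissue. Ifngr1, of the interferon gamma receptor, had 12.33 and 12.22 in gallbladder organoids, against 10.93 and 10.79 in tissue (1.41 ± 0.18 SE; adjusted p = 0.000153). Ifnlr1, which makes the receptor specific to type III interferon, had 9.05 and 9.33 in liver organoids, against 6.98 and 6.31 in liver tissue (2.55 ± 0.24; 1.21e-05). In the small intestine 3 receptors were lower in organoids and none higher, Ifnlr1 with 8.21 and 8.15 in organoids, against 9.03 and 9.29 in tissue (-0.98; 0.00838). Between differentiated and gallbladder organoids no receptor was called over all arrays, with 1 at an unadjusted p below 0.05. In the organoid fit Ifnar2, a chain of the type I receptor, was lower, at 10.78 and 10.71 in differentiated organoids, against 11.76 and 11.63 in gallbladder organoids (-0.95; 6.14e-05, and 0.183 over all arrays), Ifnar1 was lower (-0.35; 0.00845) and Ifnlr1 higher (0.51; 0.00757).

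Downstream, 23 further interferon response genes outside the set were lower in culture in most cases that were called: 12 lower and 1 higher in gallbladder, 14 lower and 3 higher in liver, and 16 lower and none higher in small intestine. Iigp1, a GTPase of the Irgm1 family, had the largest difference in liver (-6.97 ± 0.58 SE; adjusted p = 5.65e-06) and in gallbladder (-4.14 ± 0.58; 0.000284). Sp100, a nuclear body protein, was lowest against tissue in small intestine organoids (-3.60 ± 0.47; 0.000204). Of 9 genes of MHC class I presentation, 4 were lower and 2 higher in gallbladder organoids than tissue, 6 lower and none higher in liver, and 7 lower and none higher in small intestine. Psmb10, the remaining immunoproteasome subunit, was lower in all 3 organs, at -0.92, -1.57 and -1.54 (0.00403, 0.000109 and 0.000214). Between differentiated and gallbladder organoids 1 further gene was higher and 1 lower. Slfn2, a Schlafen family gene, had 7.96 and 8.01 in differentiated organoids, against 10.96 and 10.81 in gallbladder organoids (-2.91 ± 0.25; 0.00015), and Nmi, a Stat-binding protein, had 8.40 and 8.32 against 7.28 and 7.27 (1.08 ± 0.13; 0.00119). The interferon-induced chemokine Cxcl10 had 6.84 and 6.67 in differentiated organoids, against 8.33 and 8.09 in gallbladder organoids, with an adjusted p of 0.247 over all arrays and 3.04e-05 over the organoid arrays.

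The 37 genes varied together to an uneven degree. Over the 14 arrays the median Pearson correlation of the 666 gene pairs was 0.65, with 91.7% of pairs above 0, and it was 0.46 over the 8 organoid arrays and 0.46 over the 6 tissue arrays. Arrays of a group share their tissue or culture, so these values describe 7 groups more than 14 independent samples. Over the organoid arrays the tightest pairs were Parp9 with Ifih1 (r = 0.993), Dtx3l with Parp9 (0.987), Rtp4 with Irf9 (0.986) and Oas2 with Irf7 (0.981). Lgals3bp ran against the rest over the 14 arrays, with a median r of -0.45 to the other members, but not within the 8 organoid arrays (0.13) or the 6 tissue arrays (0.28). It stood at 13.44 and 13.37 in differentiated gallbladder organoids and 12.01 and 11.80 in liver tissue, the highest and lowest groups for this gene. Ifit2 departed from Ifit1 and Ifit3 in the cultures, being highest of the 4 organoid groups in small intestine organoids, where Ifit3 was lowest.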

How the data were processed

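RNA of 14 samples in 7 groups was measured on Affymetrix gene arrays. The authors deposited log2 signals per probe set made with RMA, per the submitters' processing notes, which give no version; these values were used as deposited. Gene symbols came from the platform annotation, in which 21789 of 35556 probe sets carry 1 symbol, 1621 several and 12146 none listed; 21698 were matched to the RefSeq gene table by gene number, and 0 symbols changed.

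Each of 19938 genes was represented by the single-symbol probe set with the highest mean over groups. One mean per group was fitted with limma 3.58.1 in R 4.3.3 on all 14 arrays (7 residual degrees of freedom, 9.91 with the prior), for 10 comparisons and 3 differences between organoid minus tissue differences, with Benjamini-Hochberg adjustment over all genes in each. With 2 arrays per group, precision is limited by their number.

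The members and the gene lists were chosen with earlier results of these data known. The 6 called members with the largest absolute difference and arrays that do not overlap were named per comparison, 3 per difference of differences, and up to 3 genes per further list. Fits of the 8 organoid arrays alone and of 12 arrays without small intestine tissue were added after the values were seen; in the organoid fit the 6 largest per comparison were named.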

Additional observations from a re-analysis of the deposited data

Results flagged for a closer look

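The organoid minus tissue difference was compared between 2 organs by the test of the difference between the 2 differences (limma, adjusted p below 0.05). It called 11 interferon response genes between gallbladder and liver, 15 between gallbladder and small intestine and 17 between liver and small intestine. Beside these stand 39.8%, 36.6% and 35.2% of all genes. As a share of the 37 genes, the first count was below that background and the second near it. The third was above it. The 3 called genes with the largest absolute value in each test, 9 cases in all, are given here. Between gallbladder and liver these were Oasl2, with -2.10 in gallbladder and 1.66 in liver (difference -3.75 ± 0.66 SE; adjusted p = 0.00183), Bst2, with 0.25 and -2.09 (2.34 ± 0.40; 0.00157), and Parp14, with -2.25 and -0.22 (-2.02 ± 0.51; 0.0117). Between gallbladder and small intestine they were Ifit1, with -0.52 in gallbladder and -3.97 in small intestine (3.44 ± 0.82; 0.00934), Ifit3, with -0.41 and -3.53 (3.12 ± 0.81; 0.0145), and Irf7, with -0.22 and -3.55 (3.33 ± 0.50; 0.000854). Between liver and small intestine they were Oasl2, with 1.66 in liver and -4.01 in small intestine (5.66 ± 0.66; 0.000114), Oas3, with 1.17 and -2.76 (3.93 ± 0.63; 0.000826), and Rtp4, with -0.54 and -3.72 (3.17 ± 0.74; 0.0074).

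Ifit3 lost its call without gallbladder organoid replicate 1 (adjusted p = 0.0507), and its value was 2.07 without small intestine tissue replicate 2. The other 8 kept theirs in every alternative. The 6 that involve the small intestine rest on a tissue pair in which replicate 2 was higher than replicate 1 for 36 of the 37 genes.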

How the results depend on the processing

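Of the 76 named results and their 1716 values under other settings, 1547 kept direction and side of the threshold, 107 lost the call, 62 gained one and 0 reversed. Genes named in a comparison of 2 groups were picked for arrays that do not overlap between them. Leaving out an array could not reverse their direction, so the 0 was in large part fixed by that choice. The 62 gains are of genes named from the organoid fit. Counts of called interferon genes moved by over 1.5 times as follows. Between differentiated and gallbladder organoids the count was 2, and it was 23 with only the arrays compared, 18 with array weights and 20 with the 8 organoid arrays alone. Over all 19938 genes the count was 943, then 5353, 5720 and 4582. For gallbladder against liver organoids the set gave 6, then 24, 21 and 26, and all genes 2530, then 7092, 7399 and 7945. For gallbladder against small intestine organoids the set gave 9, then 27, 25 and 27, and all genes 7100, then 11709, 12112 and 11783. For liver against small intestine organoids the set gave 10, then 27, 24 and 30, and all genes 5275, then 7852, 8191 and 8862. For gallbladder against small intestine tissue the set gave 17, then 5 with only the arrays compared and 10 with array weights. All genes gave 8973, then 3224 and 5154. For liver against small intestine tissue the set gave 14, then 6 with only the arrays compared, and all genes 7485, then 3962. Without both small intestine tissue arrays, gallbladder against liver tissue gave 25 in place of 15, and the gallbladder and liver difference of differences 20 in place of 11. Of all genes, 51.7% were then called in place of 48.1%, and 44.2% in place of 39.8%. Organoid and tissue counts in the same organ stayed within 1.5 times under all settings that kept all the arrays compared. These settings also change the count over all genes, and the cause was not tested.

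Leaving out 1 array at a time gave 0 to 6 (differentiated against gallbladder organoids), 3 to 12 (gallbladder against liver organoids), 5 to 13 (gallbladder against small intestine organoids) and 5 to 22 (liver against small intestine organoids). It gave 11 to 21, 18 to 28 and 25 to 31 for gallbladder, liver and small intestine organoids against tissue. It gave 11 to 25, 12 to 22 and 10 to 20 for gallbladder against liver, gallbladder against small intestine and liver against small intestine tissue. For the differences of differences it gave 7 to 20 (gallbladder and liver), 9 to 24 (gallbladder and small intestine) and 13 to 29 (liver and small intestine).

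The labels do not say whether replicate numbers pair the samples. Over 21 pairs of groups, same-numbered deviations correlated at -0.104 to 0.139 (median -0.003), which cannot show whether they share an animal or culture. With the replicate number as a block, the counts in the order above were 2, 5, 8, 10, 18, 25, 27, 14, 17, 14, 10, 14 and 17. The block lost the calls of Irf9 in gallbladder against liver organoids (adjusted p = 0.0654), Ifit1 in gallbladder against small intestine organoids (0.0571) and Oas2 in gallbladder against liver tissue (0.0531), and no other named one.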
